A study of Mus musculus with 6 samples.

Results

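The genes of fibroblast growth factor (FGF) signalling were followed in embryoid bodies (EBs), floating aggregates in which embryonic stem cells differentiate, before and during treatment with retinoic acid (RA), a derivative of vitamin A. They were all genes whose symbols name an FGF, an FGF receptor, a Sprouty or a Spred, together with Dusp4, Dusp6, Etv1, Etv4 and Etv5. Each needed a probe set annotated to a single gene symbol, and the brightest such probe set stood for a gene that had several. This gave 41 of the 19938 genes on the array: 18 secreted ligands, 4 intracellular FGF homologous factors, 5 receptors, 9 feedback inhibitors, 3 ETS transcription factors and 2 transcripts that share a name stem only (Fgf2os and Fgfr1op2). All the EBs came from the R1 line of mouse embryonic stem (ES) cells, an established line, were grown without leukaemia inhibitory factor and were plated at 35000 cells per ml. RNA was measured on 6 Affymetrix Mouse Gene 1.0 ST arrays, with 2 arrays for EBs at the time of RA addition (day 0, EBs 4 days old, no RA), 2 after 3 days in 2 μM RA (day 3) and 2 after 4 days in 2 μM RA (day 4). The labels give no genotype change, and do not say whether the 2 arrays of a day came from separate cultures. The study calls the samples it sequenced biological replicates but does not say this of the arrays, so the spread between them may be technical. EBs of the later ages without RA were not analysed here, and the effects of RA and of age cannot be told apart.

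FGF ligands bind receptor tyrosine kinases on the cell surface together with heparan sulphate, and the receptors pass the signal through adaptor proteins, Ras and the kinase ERK. ERK switches on ETS transcription factors and also genes that damp the pathway, among them the Sprouty and Spred proteins and the phosphatases Dusp4 and Dusp6. In mouse ES cells the FGF to ERK route is known for moving cells out of the naive state, and in the gastrulating embryo for forming and patterning mesoderm. RA is known to counter FGF signals along the body axis.

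Values are log2 intensities from Robust Multichip Average, and a gene was called changed where the adjusted p of the limma fit over all 19938 genes was 0.05 or below. The precision is limited by the number of arrays. Intensities depend on the probes, so levels are compared between days for a gene and not between genes. The replicate arrays of a day correlated at 0.9986 to 0.9988 over all genes. The labels name the cells ES cells at each day, yet of 12 pluripotent cell markers all fell by day 3 and 11 by day 4. Of all genes, 28.1% were lower at day 3 and 25.6% at day 4. The summed intensity of the 12 markers lay at 13.76 to 13.80 at day 0, 10.82 to 10.85 at day 3 and 10.54 to 10.66 at day 4 on the log2 scale. In these bulk samples, fewer cells of a type and less RNA per cell cannot be told apart.

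Large falls of some FGF genes stood beside rises of others and many small changes. Against day 0, 27 of the 41 genes passed at day 3, with 11 higher and 16 lower, while 51.9% of all genes passed, 23.8% higher and 28.1% lower. At day 4, 30 passed, with 15 higher and 15 lower, against 51.5% of all genes, 25.9% higher and 25.6% lower. The counts stood closer to the background than the sizes of change did. That background includes 6023 genes (30.2%) under the limit the study's methods use for genes it could not detect, against 7 of the 41. By at least 2-fold, 15 of the 41 (36.6%) changed at day 3 and 14 (34.1%) at day 4, against 9.23% and 10.4% of all genes. The median size of change, whatever its direction, was 0.39 at day 3 and 0.75 at day 4 on the log2 scale for the 41 genes, and 0.21 on both days for all genes. Their signed medians were near 0 (−0.07 at day 3 and 0.03 at day 4, with −0.05 and 0.00 over all genes). The comparisons of day 3 and day 4 share the day 0 arrays. With each array centred on its median over the genes, 9 members were higher and 21 lower at day 3, against 19.5% and 42.6% of all genes. At day 4, 12 were then higher and 18 lower, against 19.0% and 42.7% of all genes. With centring on the median over all probe sets, 11 were higher and 16 lower at day 3, against 22.3% and 30.2% of all genes. At day 4 that setting gave 18 higher and 15 lower, against 35.8% and 19.6%.

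**Figure D1:**
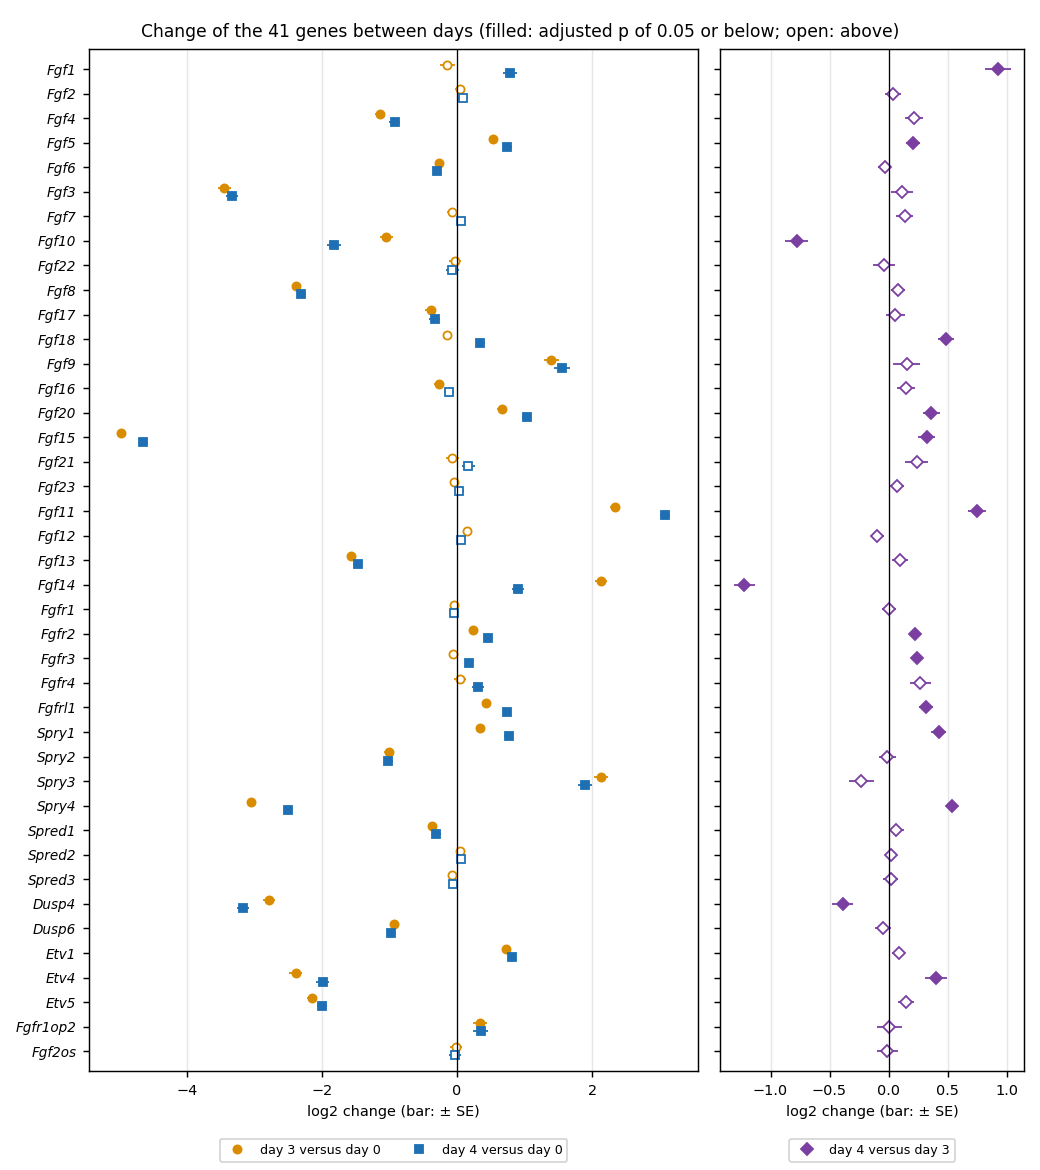
Log2 change of the 41 FGF genes from the limma fit, with day 3 (circles) and day 4 (squares) against day 0 on the left and day 4 against day 3 (diamonds) on the right, horizontal bars for ± SE, genes grouped by role, and symbols filled where the adjusted p was 0.05 or below. Fgf15 had the largest fall of the 41 (−4.97 at day 3) and Fgf11 the largest rise (3.08 at day 4), and the changes of the receptors against day 0 lay between −0.07 and 0.74.

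Among the 18 secreted ligands, 8 fell and 3 rose by day 3, and 7 were lower and 5 higher at day 4. Of all genes, 28.1% were lower and 23.8% higher at day 3, and 25.6% and 25.9% at day 4. Fgf15, the mouse endocrine FGF that signals from the ileum to the liver in the adult and is made in the embryonic brain, lay at 11.29 and 11.23 before RA, 6.38 and 6.21 after 3 days and 6.60 and 6.64 after 4 days. The 4 arrays with RA were all more than 4 log2 units below the 2 of day 0. The change was −4.97 (SE 0.07, adjusted p = 3.49e-08) at day 3 and −4.64 (SE 0.07, adjusted p = 4.19e-08) at day 4, which is 31.3-fold and 25.0-fold lower. Fgf3, a ligand of the otic and tail bud regions, lay at 9.25 and 9.34 before RA, 5.78 and 5.92 after 3 days and 5.84 and 6.09 after 4 days. Its day 0 arrays did not overlap with the others, and it changed by −3.44 (SE 0.09, adjusted p = 2.66e-07) and −3.33 (SE 0.09, adjusted p = 2.61e-07). Its means at day 3 and day 4, 5.85 and 5.97, lay below 6, where differences between dim signals are compressed.

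Fgf8, which the streak needs for cells to migrate away from it, lay at 9.61 and 9.57 before RA, 7.24 and 7.16 after 3 days and 7.24 and 7.33 after 4 days. All 4 arrays with RA were below both of day 0, with changes of −2.39 (SE 0.06, adjusted p = 2.07e-07) and −2.30 (SE 0.06, adjusted p = 2.02e-07), or 5.23-fold and 4.93-fold lower. Fgf4, the ligand that ES cells themselves secrete, lay at 7.92 and 8.06 before RA, 6.77 and 6.92 after 3 days and 7.03 and 7.09 after 4 days. It was lower on every later array, with changes of −1.14 (SE 0.08, adjusted p = 1.42e-05) at day 3 and −0.93 (SE 0.08, adjusted p = 3.52e-05) at day 4. Between day 3 and day 4, Fgf3 changed by 0.11 (adjusted p = 0.408), Fgf4 by 0.21 (adjusted p = 0.0747) and Fgf8 by 0.08 (adjusted p = 0.352), none of which passed. Fgf15 was higher at day 4 by 0.32 (adjusted p = 0.0152). That last call was lost without day 3 replicate 2 or either day 4 array (adjusted p = 0.0528 to 0.0807).

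Fgf10, a mesenchymal ligand of limb and lung buds, fell in steps. It lay at 9.92 and 9.94 before RA, 8.80 and 8.98 after 3 days and 8.24 and 7.98 after 4 days, and the arrays of the 3 days did not overlap. Its changes were −1.05 (SE 0.10, adjusted p = 7.81e-05) at day 3, −1.82 (SE 0.10, adjusted p = 4.2e-06) at day 4 and −0.78 (adjusted p = 0.00191) from day 3 to day 4. Over the same days 8 of the 11 measured mesenchyme markers rose and 2 fell, while 25.9% of all genes were higher and 25.6% lower at day 4. The remaining falls were small, with Fgf17, of the Fgf8 subfamily, at −0.39 (adjusted p = 0.00468) and −0.33 (adjusted p = 0.00967), and Fgf6, a ligand of muscle, at −0.27 (adjusted p = 0.00378) and −0.30 (adjusted p = 0.00197). Fgf16 passed at day 3 only, at −0.27 (adjusted p = 0.0188), and lost that call without day 0 replicate 2 or either day 3 array (adjusted p = 0.0645 to 0.103). Fgf6 and Fgf16 had means below 6 over the 6 arrays.

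Fgf3, Fgf4 and Fgf15, which fell together, are neighbours on chromosome 7 with 0 protein-coding genes between them in the RefSeq table. To show what stands before the starts of a fallen neighbouring pair, the 300 bases from 250 before to 50 after the start of Fgf3 and of Fgf4 are printed 5′ to 3′ on the coding strand, from RefSeq on GRCm38.p6. Capitals mark matches, on either strand, to 6 short motifs: CCGGAAG, which ETS factors bind, AGGTCA and its variant form GGGTCA, which are half-sites of nuclear receptors such as the RA receptors, the GC box GGGCGG, the site CTTTGA of the TCF and LEF factors, and the TATAAA box of core promoters. No capital stretch overlapped another in these promoters. The Fgf3 promoter lies at chr7:144838362-144838661, plus strand, and that of Fgf4 at chr7:144861136-144861435, plus strand.
Fgf3: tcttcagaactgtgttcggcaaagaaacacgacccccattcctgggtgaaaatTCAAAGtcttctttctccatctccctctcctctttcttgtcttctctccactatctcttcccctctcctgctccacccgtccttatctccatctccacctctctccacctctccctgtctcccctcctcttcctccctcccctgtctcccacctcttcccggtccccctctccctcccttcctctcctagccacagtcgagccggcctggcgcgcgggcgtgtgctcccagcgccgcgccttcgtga
Fgf4: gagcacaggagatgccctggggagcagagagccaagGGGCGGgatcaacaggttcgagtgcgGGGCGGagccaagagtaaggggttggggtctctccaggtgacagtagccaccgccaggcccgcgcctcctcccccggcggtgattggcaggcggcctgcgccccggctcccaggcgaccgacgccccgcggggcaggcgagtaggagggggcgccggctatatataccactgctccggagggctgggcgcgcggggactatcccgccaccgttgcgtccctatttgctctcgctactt
Fgf3 held 1 match, CTTTGA on the reverse strand from −197 counted from the start site, and Fgf4 held 2 matches to GGGCGG, from −214 and −188. Of all 32851 RefSeq promoters of this length, 16% held CTTTGA and 35.7% held GGGCGG. The letters differ in base composition, with 59.3% G and C and 14 CpG in Fgf3 and 69.7% and 28 CpG in Fgf4.

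A smaller set of ligands rose. Fgf9, a ligand of mesenchyme and gonad that signals from epithelia, lay at 6.51 and 6.80 before RA, 7.94 and 8.17 after 3 days and 8.26 and 8.15 after 4 days. Its 4 arrays with RA were all above both of day 0, with rises of 1.40 (SE 0.11, adjusted p = 3.98e-05) and 1.55 (SE 0.11, adjusted p = 2.05e-05). Fgf20, of the same subfamily, rose by steps, at 6.50 and 6.62 before RA, 7.22 and 7.24 after 3 days and 7.52 and 7.66 after 4 days. The 3 days did not overlap, and the changes were 0.67 (SE 0.07, adjusted p = 0.000153), 1.03 (SE 0.07, adjusted p = 1.45e-05) and, from day 3 to day 4, 0.36 (adjusted p = 0.00975). The last call was lost without day 3 replicate 1 or day 4 replicate 2 (adjusted p = 0.0587 and 0.0580). The third member of the subfamily, Fgf16, was the dim gene given above.

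Fgf1, which binds every FGF receptor, came up at day 4 and not at day 3. It lay at 6.82 and 6.85 before RA, 6.68 and 6.70 after 3 days and 7.80 and 7.43 after 4 days, so both day 4 arrays stood above all the others. The change was −0.14 (adjusted p = 0.324) at day 3, 0.78 (SE 0.11, adjusted p = 0.000657) at day 4 and 0.92 (SE 0.11, adjusted p = 0.00164) between the later days. Fgf18, a ligand of bone and cartilage, had smaller values of −0.15 (adjusted p = 0.122), 0.34 (adjusted p = 0.00422) and 0.49 (adjusted p = 0.00302) in the same order. Fgf5, known as a marker of the primed epiblast, did not fall with the pluripotent genes but rose by 0.54 (adjusted p = 0.000206) and 0.75 (adjusted p = 3.25e-05). Its step from day 3 to day 4, 0.21 (adjusted p = 0.0381), was lost without any array but day 3 replicate 2 (adjusted p = 0.0537 to 0.195). The ligands that passed in no comparison were Fgf2, Fgf7, Fgf21, Fgf22 and Fgf23, with changes against day 0 between −0.08 and 0.16. Of these, Fgf2, Fgf7 and Fgf21 had means below 6, with an SD below 0.3 over the 6 arrays, the limit the study's methods use for genes it could not detect. Fgf12, Fgf6, Fgf16 and Fgf2os were the other members under that limit, 7 of the 41 in all, against 6023 of the 19938 genes (30.2%).

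**Figure D2:**
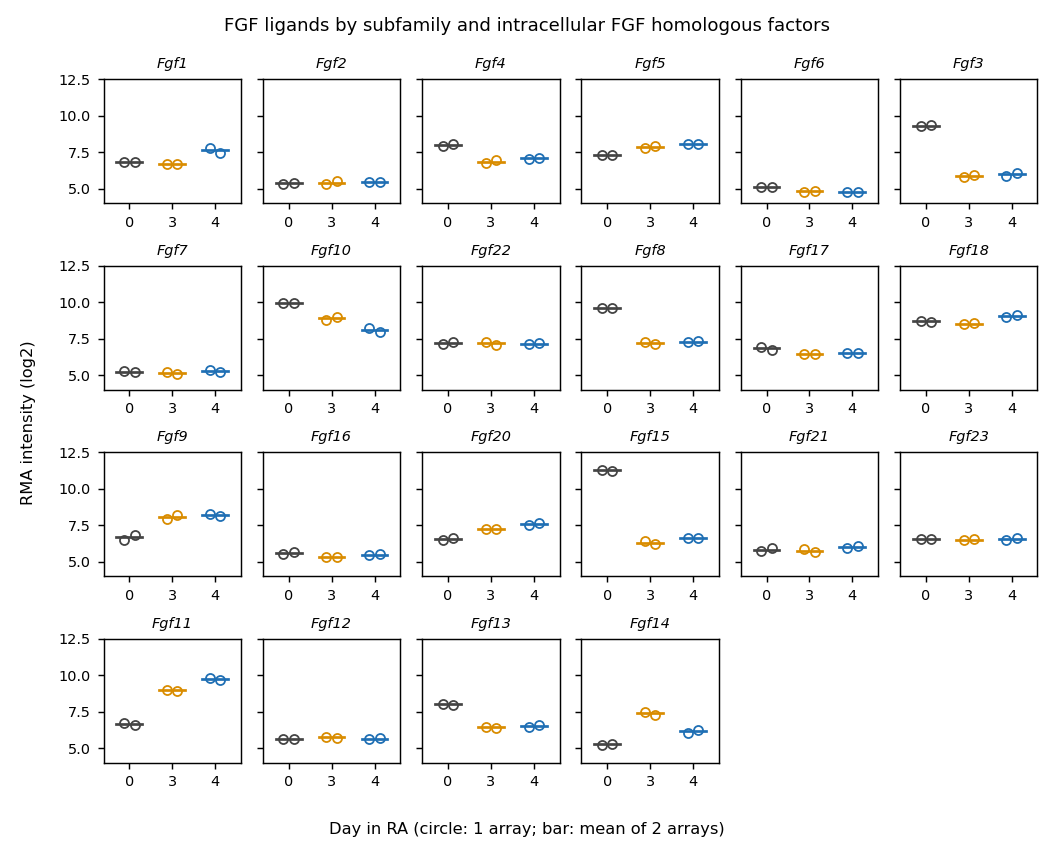
Log2 intensity of FGF ligands and homologous factors by day in RA, 1 panel a gene, with a circle for each of the 6 arrays and a bar at the mean of the 2 arrays of a day. Fgf15, Fgf3, Fgf8 and Fgf4 had their 2 day 0 arrays above all others, Fgf11 rose at each day, and Fgf14 was highest at day 3.

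The 4 intracellular homologous factors are not secreted. They bind the tails of voltage-gated sodium channels and are best known in neurons and heart muscle. Fgf11 had the largest rise of the 41 genes, from 6.72 and 6.56 at day 0 to 8.999 and 8.95 at day 3 and 9.78 and 9.67 at day 4. The 3 days did not overlap, and the changes were 2.33 (SE 0.07, adjusted p = 4.81e-07), 3.08 (SE 0.07, adjusted p = 1.38e-07), or 8.46-fold at day 4, and 0.75 (SE 0.07, adjusted p = 0.000821) between day 3 and day 4. Fgf14 went up and came part of the way back, at 5.21 and 5.31 before RA, 7.47 and 7.31 after 3 days and 6.06 and 6.27 after 4 days. Each day stood apart from the others, and the day 0 mean of 5.26 lay below 6. It was higher by 2.13 (SE 0.09, adjusted p = 1.61e-06) at day 3 and by 0.90 (SE 0.09, adjusted p = 9.34e-05) at day 4, and it fell by 1.22 (adjusted p = 0.000349) from day 3 to day 4. Fgf13 moved down, at 8.04 and 7.96 before RA, 6.47 and 6.39 after 3 days and 6.47 and 6.59 after 4 days, with all later arrays below those of day 0. It changed by −1.57 (SE 0.07, adjusted p = 1.68e-06) and −1.47 (SE 0.07, adjusted p = 1.99e-06). Fgf12 was dim throughout and did not pass at day 3 (0.15, adjusted p = 0.0614) or day 4 (0.05, adjusted p = 0.486). Of the 11 measured neural progenitor and neuron markers, 4 were higher and 5 lower at day 3, against 23.8% and 28.1% of all genes. At day 4, 4 were higher and 3 lower, against 25.9% and 25.6% of all genes. The summed intensity of these markers was 11.88 to 11.91 at day 0, 11.57 to 11.61 at day 3 and 11.93 to 12.001 at day 4 on the log2 scale. Their part in the changes of Fgf11, Fgf13 and Fgf14 was not tested.

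The 5 receptors changed by between −0.07 and 0.74 against day 0, with 2 higher at day 3, 4 higher at day 4 and 0 lower on either day. The shares over all genes were 23.8% higher and 28.1% lower at day 3, and 25.9% and 25.6% at day 4. Fgfr1, the main receptor of the epiblast, lay at 11.37 and 11.27 before RA, 11.28 and 11.27 after 3 days and 11.28 and 11.28 after 4 days, and its days overlapped. Its change was −0.05 (adjusted p = 0.52) at day 3 and −0.04 (adjusted p = 0.575) at day 4, with a 95% confidence interval of −0.18 to 0.09 for day 4. Fgfr2, which also answers to the Fgf7 subfamily, lay at 9.31 and 9.32 before RA, 9.55 and 9.55 after 3 days and 9.76 and 9.79 after 4 days. The days did not overlap, and it was higher by 0.23 (SE 0.05, adjusted p = 0.0062) and 0.46 (SE 0.05, adjusted p = 0.000176). Fgfrl1, a receptor without a kinase domain that can hold ligands back, lay at 9.34 and 9.25 before RA, 9.75 and 9.69 after 3 days and 10.01 and 10.06 after 4 days. It was higher on each later array, by 0.42 (SE 0.06, adjusted p = 0.000651) and 0.74 (SE 0.06, adjusted p = 3.05e-05), the largest rise among the 5. Fgfr3 and Fgfr4 passed at day 4 with small values, 0.17 (adjusted p = 0.0241) and 0.31 (adjusted p = 0.0234). The Fgfr3 call was lost without any of the 4 arrays compared (adjusted p = 0.0612 to 0.0944), and that of Fgfr4 without either day 0 array or day 4 replicate 2 (adjusted p = 0.0613 to 0.103).

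Receptor changes of this size also depended on how the arrays were scaled. With each array centred on its median over the genes, under which the median gene changed by −0.15 on both days, Fgfr1 changed by −0.15 at day 3 (adjusted p = 0.0451) and −0.19 at day 4 (adjusted p = 0.0185), Fgfr3 by −0.17 at day 3 (adjusted p = 0.0266) and 0.03 at day 4 (adjusted p = 0.663), Fgfr4 by 0.16 at day 4 (adjusted p = 0.176) and Fgfr2 by 0.13 at day 3 (adjusted p = 0.0571). Fgfr1 at day 3 then lay at the median of all genes. Fgfr1op2, named after a fusion partner of the receptor gene in blood cancer and itself no receptor, lay at 9.42 and 9.08 before RA, 9.62 and 9.56 after 3 days and 9.63 and 9.56 after 4 days. Day 0 replicate 2 was its low array. The changes of 0.34 (adjusted p = 0.031) and 0.35 (adjusted p = 0.028) became 0.17 (adjusted p = 0.107) and 0.18 (adjusted p = 0.0933) without it, and the call was also lost without either array of the later day compared (adjusted p = 0.0721 to 0.124), and at day 3 without either day 4 array too (adjusted p = 0.0506). Fgf2os, which is transcribed opposite Fgf2, lay at 5.16 and 5.17 before RA, 5.12 and 5.16 after 3 days and 5.00 and 5.26 after 4 days and passed at neither day.

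Of the 9 feedback genes, Spry2, Spry4, Spred1, Dusp4 and Dusp6 fell and Spry1 and Spry3 rose, on both later days. Of all genes, 28.1% were lower and 23.8% higher at day 3, and 25.6% and 25.9% at day 4. Spry4, a Sprouty that ERK signalling induces, lay at 10.30 and 10.24 before RA, 7.23 and 7.23 after 3 days and 7.76 and 7.77 after 4 days. The 3 days did not overlap. It changed by −3.04 (SE 0.05, adjusted p = 5.11e-08) at day 3 and −2.51 (SE 0.05, adjusted p = 8.19e-08) at day 4, and rose by 0.54 (SE 0.05, adjusted p = 0.000788) between those days. Dusp4, a nuclear phosphatase of ERK, lay at 11.41 and 11.27 before RA, 8.46 and 8.66 after 3 days and 8.24 and 8.10 after 4 days. All later arrays were below those of day 0, with changes of −2.78 (SE 0.09, adjusted p = 5.06e-07) and −3.17 (SE 0.09, adjusted p = 2.54e-07). Dusp6, its cytoplasmic counterpart, lay at 11.03 and 10.90 before RA, 9.98 and 10.08 after 3 days and 9.96 and 10.02 after 4 days and changed less, by −0.93 (adjusted p = 2.4e-05) and −0.97 (adjusted p = 1.66e-05). Spry2 lay at 9.21 and 9.17 before RA, 8.12 and 8.25 after 3 days and 8.10 and 8.24 after 4 days, lower on all 4 later arrays, with changes of −1.01 (SE 0.07, adjusted p = 1.9e-05) and −1.02 (SE 0.07, adjusted p = 1.56e-05). Spred1, which ties neurofibromin to Ras at the membrane, lay at 10.85 and 10.86 before RA, 10.46 and 10.50 after 3 days and 10.62 and 10.47 after 4 days and changed by −0.37 (adjusted p = 0.00195) and −0.31 (adjusted p = 0.00495).

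The Sproutys did not move as a family. Spry3 rose while Spry2 and Spry4 fell. It lay at 7.30 and 7.07 before RA, 9.18 and 9.44 after 3 days and 9.12 and 9.04 after 4 days, with all later arrays above those of day 0, and its changes were 2.13 (SE 0.11, adjusted p = 3.61e-06) and 1.90 (SE 0.11, adjusted p = 5.48e-06). Of the 15 neighbours in number of its probe set that could be placed, 6 were genes of chromosome 1, the commonest. RefSeq places Spry3 on the X chromosome. Spry1 lay at 9.85 and 9.69 before RA, 10.10 and 10.11 after 3 days and 10.53 and 10.54 after 4 days, rising at each step without overlap. It was higher by 0.34 (adjusted p = 0.00318) at day 3, 0.76 (adjusted p = 4.07e-05) at day 4 and 0.42 (adjusted p = 0.00388) from day 3 to day 4. Spred2 and Spred3 passed in no comparison, with changes between −0.08 and 0.06. With arrays centred on their median over the genes, Spred3 was lower at both days (−0.18 at day 3 and −0.20 at day 4, adjusted p = 0.0392 and 0.0231). Centred on their median over all probe sets instead, Spred2 was higher at day 4 (0.17, adjusted p = 0.0469). A second, dimmer Spred2 probe set was at 0.02 at day 3 and 0.21 at day 4 (adjusted p = 0.875 and 0.0565 in a fit over all single-symbol probe sets).

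Spry1 and Spry2 are shown as the pair of Sproutys that moved in opposite directions and have a RefSeq promoter of the same length and strand convention as above. The Spry1 promoter lies at chr3:37639697-37639996, plus strand, and that of Spry2 at chr14:105896770-105897069, minus strand.
Spry1: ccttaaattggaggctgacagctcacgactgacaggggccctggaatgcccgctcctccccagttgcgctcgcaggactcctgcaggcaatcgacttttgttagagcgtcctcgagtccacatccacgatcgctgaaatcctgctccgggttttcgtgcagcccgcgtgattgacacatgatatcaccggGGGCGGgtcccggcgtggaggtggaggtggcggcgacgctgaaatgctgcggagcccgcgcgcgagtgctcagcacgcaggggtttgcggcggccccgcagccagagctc
Spry2: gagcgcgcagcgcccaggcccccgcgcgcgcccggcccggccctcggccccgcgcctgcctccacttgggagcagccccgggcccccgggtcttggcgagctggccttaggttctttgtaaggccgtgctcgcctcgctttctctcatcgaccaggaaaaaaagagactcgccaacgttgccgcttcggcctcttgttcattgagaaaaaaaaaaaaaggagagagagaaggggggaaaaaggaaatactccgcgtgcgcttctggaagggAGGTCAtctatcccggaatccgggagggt
Each held 1 match, GGGCGG from −60 in Spry1 and AGGTCA from 21 bases after the start in Spry2. AGGTCA stood in 16.3% of all RefSeq promoters. Both were alike in CpG, with 29 in Spry1 and 28 in Spry2. Of the 41 genes, 30 had a promoter in the RefSeq table, 40 promoters in all. Among these 40, 25 promoters of 20 genes held the GC box (35.7% of all promoters). The first nuclear receptor half-site stood in 4 (16.3%), its variant form in 4 (13.7%), the TCF and LEF site in 4 (16%) and the core promoter box in 4 (13.6%). The ETS site stood in 1, that of Fgfrl1 (8.86%). A gene with several promoters counts more than once, and those of Fgfr1op2 overlap. The medians of the 40 were 19 CpG and 62.7% G and C, against 7 and 52.7% over all promoters. A match of letters is a description and not a bound site.

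**Figure D3:**
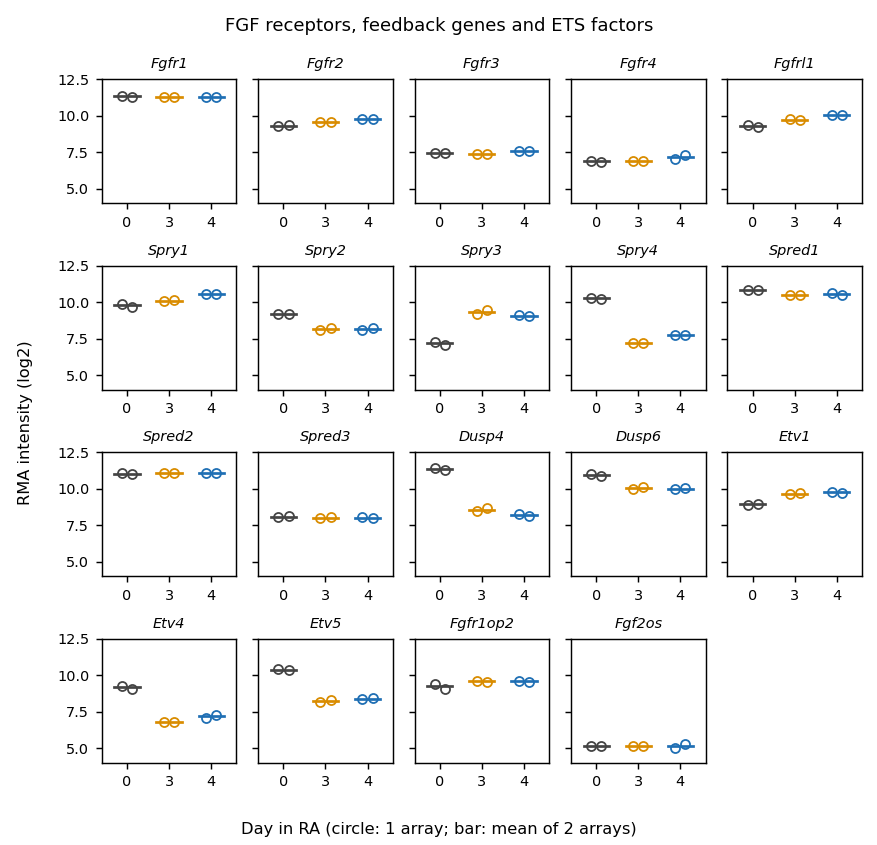
Log2 intensity of FGF receptors, feedback inhibitors, ETS factors, Fgfr1op2 and Fgf2os by day in RA, 1 panel a gene, with circles for the 6 arrays and bars at the mean of each day. Fgfr1 stayed between 11.27 and 11.37, while Spry4, Dusp4, Etv4 and Etv5 had their 2 day 0 arrays above all others and Spry3 had them below.

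The 3 ETS factors of the PEA3 group, Etv1, Etv4 and Etv5, carry FGF signals to target genes, and Etv4 and Etv5 are classic readouts of the pathway. Etv4 lay at 9.25 and 9.09 before RA, 6.79 and 6.77 after 3 days and 7.05 and 7.30 after 4 days. Its day 0 arrays were above all others, and it changed by −2.39 (SE 0.09, adjusted p = 1.21e-06) and −1.99 (SE 0.09, adjusted p = 2.39e-06). A rise from day 3 to day 4, 0.40 (adjusted p = 0.0189), was lost without day 3 replicate 1, day 3 replicate 2 or day 4 replicate 2 (adjusted p = 0.0779 to 0.0849). Etv5 lay at 10.40 and 10.36 before RA, 8.15 and 8.32 after 3 days and 8.35 and 8.41 after 4 days, again with no overlap between day 0 and the rest, and changed by −2.15 (SE 0.07, adjusted p = 5.56e-07) and −1.998 (SE 0.07, adjusted p = 6.6e-07). Etv1 went the other way. It lay at 8.89 and 8.97 before RA, 9.64 and 9.67 after 3 days and 9.77 and 9.72 after 4 days, with all later arrays above those of day 0, and rose by 0.72 (SE 0.06, adjusted p = 3.06e-05) and 0.81 (SE 0.06, adjusted p = 1.5e-05). Etv1 and Etv5 had a second probe set each, and the brighter one used here is numbered among probe sets of another chromosome than the gene's own. The second probe sets changed the same way, by 0.84 and 0.99 for Etv1 and by −2.30 and −1.88 for Etv5 at day 3 and day 4.

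From day 3 to day 4, more FGF genes were higher than lower. In that comparison 15 of the 41 passed, with 12 higher and 3 lower, while 28.1% of all genes passed, 15.8% higher and 12.2% lower. With each array centred on its median over all probe sets, 23 were higher and 2 lower, against 44.3% and 6.93% of all genes. By at least 2-fold only Fgf14 changed, against 0.767% of all genes. The 3 lower genes were Fgf10, Fgf14 and Dusp4, the last by −0.39 (adjusted p = 0.0178), a call lost without the second replicate of day 3 or of day 4 (adjusted p = 0.0879 and 0.103). The 12 higher genes were Fgf1, Fgf5, Fgf11, Fgf15, Fgf18, Fgf20, Fgfr2, Fgfr3, Fgfrl1, Spry1, Spry4 and Etv4. Among the receptors, Fgfr2 (0.22, adjusted p = 0.0168) lost its call without day 3 replicate 1, day 3 replicate 2 or day 4 replicate 2 (adjusted p = 0.0740 to 0.0814), Fgfr3 (0.24, adjusted p = 0.0136) without day 3 replicate 1 or either day 4 array (adjusted p = 0.0513 to 0.0808) and Fgfrl1 (0.32, adjusted p = 0.00807) without day 4 replicate 2 (adjusted p = 0.0508). Fewer members passed in this comparison when any array was left out, and fewest without day 4 replicate 2. Leaving out any array also lowered the number of all genes that passed, so the drop was not particular to the FGF genes.

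Around these genes, the partners of FGF at the cell surface rose more often than they fell. Of 14 measured co-receptors and extracellular partners, 8 were higher and 4 lower at day 4, with a median log2 change of 0.27 against 0.00 over all genes, and 7 were higher and 4 lower at day 3. Of all genes, 25.9% were higher and 25.6% lower at day 4, and 23.8% and 28.1% at day 3. Flrt2, a membrane protein that binds FGF receptors, rose by 2.64 and Ncam1, the neural cell adhesion molecule, by 2.40. Cd44, a hyaluronan receptor, fell by 2.64, and the proteoglycan Sdc1 fell by 0.70. Cdh2 was at 0.02 (adjusted p = 0.783). Of 17 measured genes that make, edit or, as the glypicans do, carry heparan sulphate, 11 were higher and 1 lower at day 4, with a median of 0.53. At day 3, 11 were higher and 4 lower. The sulphotransferase Hs6st1 rose by 1.499 and the sulphatase Sulf1 by 1.27. Hs6st2, a relative of Hs6st1, fell by 0.54, and the polymerase gene Ext1 was at 0.02 (adjusted p = 0.77).

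The cascade below the receptors had a median near that of all genes. Of 26 adaptor, Ras and ERK genes, 18 were measured with a single-symbol probe set, 7 of them higher and 4 lower at day 4, with a median of 0.05, and 7 higher and 5 lower at day 3. The shares over all genes were 25.9% higher and 25.6% lower at day 4, and 23.8% and 28.1% at day 3. The adaptor Gab1 rose by 1.52 and the Ras exchange factor Sos2 by 0.95, while the scaffold Ksr1 fell by 1.78 and the kinase Braf fell by 1.29. Map2k1, the kinase that activates ERK, was at −0.10 (adjusted p = 0.194). Of 18 other inhibitors of receptor and ERK signalling, 3 were higher and 8 lower at day 4, with a median of −0.21, and 2 were higher and 10 lower at day 3. Dusp9, an ERK phosphatase of ES cells and trophoblast, fell by 3.09 and the FGF receptor inhibitor Il17rd fell by 1.81. Lrig3 rose by 1.09 and Errfi1, an inhibitor of the EGF receptor, by 0.42, and Dusp1 was at −0.14 (adjusted p = 0.0672).

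Of 24 ERK immediate early and ETS genes, 5 were higher and 15 lower at day 4, with a median of −0.30. At day 3 the counts were 3 and 13. The shares over all genes were 25.9% higher and 25.6% lower at day 4, and 23.8% and 28.1% at day 3. The largest falls were those of Etv2 (−4.13, adjusted p = 1.28e-06), an ETS factor of blood and endothelial precursors, and Myc (−2.70, adjusted p = 7e-08), which many pathways besides FGF control. Jun rose by 0.54 and Elk4 by 0.51, and Fosb was at 0.12 (adjusted p = 0.361).

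**Figure D4:**
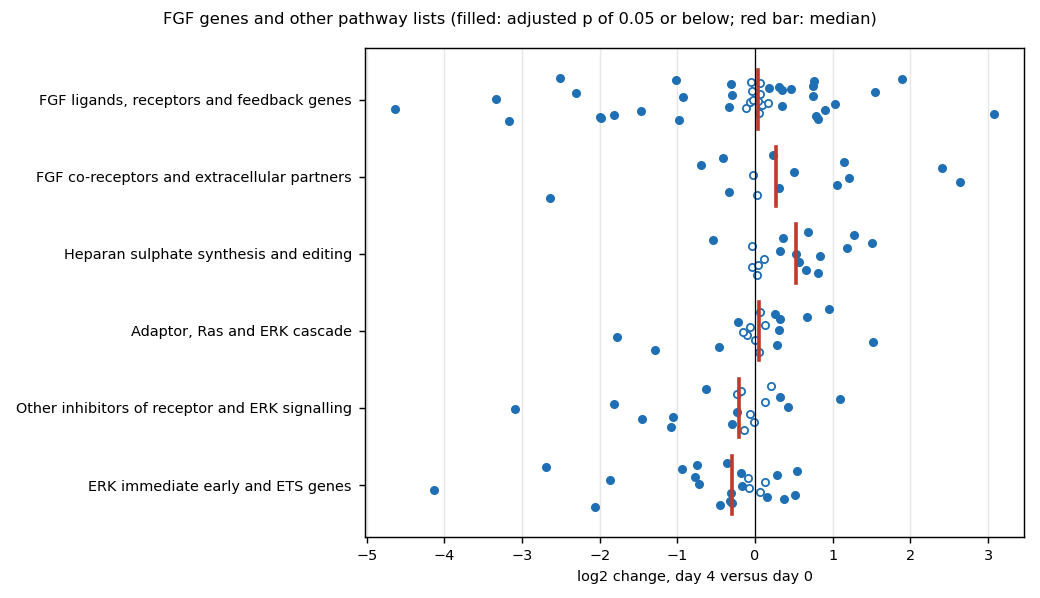
Log2 change from day 0 to day 4 of the 41 FGF genes and of the genes of 5 further lists of the pathway, with 1 point a gene, filled where the adjusted p was 0.05 or below, and a red bar at the median of each list. The medians ran from −0.30 for the immediate early and ETS genes to 0.53 for heparan sulphate synthesis and editing, a list that also holds glypicans, which carry heparan sulphate.

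Marker genes of several cell types changed over the same days as the FGF genes. The shares over all genes were 23.8% higher and 28.1% lower at day 3, and 25.9% and 25.6% at day 4. From day 3 to day 4 they were 15.8% and 12.2%. Of 11 measured primitive streak and mesendoderm markers, 9 were lower and 1, Lhx1, higher at day 3, and 9 were lower and 0 higher at day 4. Their summed intensities were 13.54 to 13.55 at day 0, 10.34 to 10.54 at day 3 and 10.22 to 10.36 at day 4 on the log2 scale. Of 11 mesenchyme markers, 8 were higher and 2, Col1a1 and Thy1, lower, with sums of 11.25 to 11.32, 12.62 to 12.66 and 12.98 to 13.04. Of 12 primitive and visceral endoderm markers, 7 were higher and 2 lower at day 4 (12.34 to 12.37, 13.74 to 13.77 and 13.74 to 13.75). At day 3, 5 of these 12 were higher and 2 lower, with a median log2 change of 0.003. A sum weights the bright genes most, and its rise was not one of the whole list. Of 12 endothelial markers 7 were higher and 4 lower (13.13 to 13.19, 13.38 to 13.47 and 13.22 to 13.24). Red cell and blood markers had their highest sums at day 3 (11.78 to 11.89, 14.41 to 14.58 and 12.78 to 12.98), where the globins Hba-x (6.11) and Hbb-y (6.10) had the largest rises, 6 of 11 were higher and 3, Runx1, Tal1 and Spi1, lower. From day 3 to day 4, 8 of the 11 fell and 1, Runx1, rose. Intensities of this kind have no zero, so no marker can be said to be absent. The part of these cell types in the changes of Fgf4, Fgf8, Fgf15, Spry4, Etv4 and the other members was not tested.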

How the data were processed

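The 6 samples, 2 a day, were each measured on their own 1-colour array, and groups and replicate numbers came from the sample titles. The authors deposited log2 intensities, obtained per the labels by RMA in Partek (version not given in the sources used here), which corrects background, quantile-normalizes the arrays and summarises probes. Changes are therefore relative to the other transcripts, and those of dim genes are understated.

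Of 35557 probe sets, 21789 had 1 gene symbol in the platform annotation, 1621 had several and 12147 were unnamed here. The symbols of 21698 were found in RefSeq (GRCm38.p6), which also supplied promoters and gene order. Where a gene had several probe sets (999 genes), the brightest was used. Fgfr1op, listed under a newer symbol, did not match the rule. All 6 arrays entered 1 limma fit (version 3.58.1, R 4.3.3; lmFit, eBayes, no trend) with a mean per day, 3 residual and 4.07 prior degrees of freedom, two-sided tests and Benjamini-Hochberg adjustment over 19938 genes. Errors are SE of the fit, n = 2 arrays a day. A permutation test of 2 arrays against 2 cannot go below p = 0.333 and was not used. The fit was tested on simulated data.

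The members and the gene lists were chosen with earlier results of these data known. Each array's value is given for members that passed against day 0 with a log2 change of at least 1 and no overlap, those with the largest change of their role, and those that passed with at least 0.5 from day 3 to day 4. Other members with array values (Dusp6, Etv1, Fgfr1, Spry1) were chosen after their values were seen. Of each pathway list, up to 2 genes each way and 1 that did not pass are named. Alternatives were other scalings, fits, filters, probe-set rules, a replicate block and leaving out each array.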

Additional observations from a re-analysis of the deposited data

How the results depend on the processing

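Of the 123 member results (41 genes in 3 comparisons), 72 passed, none changed direction past the threshold under any alternative, and 14 lost their call under at least one. Those were changes of small size, given with the report's values. The additional demand of a 2-fold change left 15 members at day 3 against day 0 (4 higher), 14 at day 4 against day 0 (4 higher), and 1 from day 3 to day 4 (0 higher, 1 lower). Centring each array on its median over all probe sets gave 25 members from day 3 to day 4, 23 of them higher, in place of 15 and 12, with the median gene at 0.18. The same setting moved the split of all genes to 7132 higher and 3915 lower at day 4 against day 0 (5154 and 5106 as deposited) and to 8829 and 1381 from day 3 to day 4 (3156 and 2437). Centring on the median over the genes, an alternative chosen after seeing the data, gave 3889 and 8495 at day 3 and 3781 and 8521 at day 4 against day 0, and 2268 and 3081 from day 3 to day 4.

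Without 1 array in turn, 25 to 27 members passed at day 3 against day 0 (10 to 11 higher, 15 to 16 lower), 27 to 30 at day 4 against day 0 (12 to 15 higher, 15 lower) and 7 to 14 from day 3 to day 4 (5 to 11 higher, 2 to 3 lower). The lowest counts of the last comparison were those without day 4 replicate 2. The lone array of a day was then assumed to vary like the other days. A filter on means below 6 left 13684 genes and 34 of the members.

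Replicate numbers were not used as pairs in the main fit. The differences between replicates correlated at 0.03 to 0.08 between days over all genes. Array noise also lowers such a correlation, so it cannot show whether arrays with the same number share a culture. With the replicate number as a block, 27, 30 and 15 members passed, as without it. Fgf4 gained a call from day 3 to day 4 (0.21, adjusted p = 0.0369) and Fgf5 lost its own (adjusted p = 0.0518).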

Other observations

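The probe sets of the array are numbered mostly in the order of the chromosomes, and 41 of the 44 single-symbol probe sets of the FGF genes stood among numbers of genes of their own chromosome. The exceptions were those used for Etv1, Etv5 and Spry3. For Etv5, 20 of the 20 nearest named neighbours in number were genes of chromosome 10, and for Etv1 16 of 18 were genes of chromosome 13, while RefSeq places Etv5 on chromosome 16 and Etv1 on chromosome 12. For Spry3, a gene of the X chromosome, the commonest chromosome was 1, with only 6 of 15 neighbours. What these probes hybridise to was not tested. Between day 3 and day 4 the second Etv5 probe set passed, at 0.42 (adjusted p = 0.0182), and the first did not, at 0.15 (adjusted p = 0.163), in a fit over all single-symbol probe sets. The difference between them was not tested.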
